A study of Mus musculus with 20 samples.

Results

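Footprints of eIF3-associated 80S ribosomes were compared between starved and fed control mouse embryonic fibroblasts. The comparison rested on 4 of the 20 libraries of the study, which were chosen by their titles as 2 fed and 2 starved control libraries of the eIF3-80S assay. Values were joined by transcript identifier, and the 1741 transcripts listed in all 4 files were tested, of 6384 listed in any of the 4 and 15354 listed anywhere in the study. The cells were of strain C57BL/6J, and the study's design text calls the control cells wild type. Fed cells were kept in DMEM with 10% FBS, and amino acid starvation consisted of 2 h in a medium given as DMEM plus "DFBS", whose meaning is not spelled out in the labels. Neither control group received 4-OHT or Thiamet-G. The labels do not say how eIF3-bound ribosomes were separated from others, nor whether replicates came from separate cultures. Spread between replicates, and with it each p-value, may therefore be of technical origin.

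The factor eIF3 is a large complex that binds the small ribosomal subunit and helps it to load mRNA and scan for a start codon. It is known to remain on some 80S ribosomes during the first steps of elongation, so that footprints of eIF3-bound 80S ribosomes sample ribosomes that have initiated not long before. Lack of amino acids activates the kinase GCN2, which phosphorylates the initiation factor eIF2 and starts the integrated stress response. Initiation on most mRNAs then declines, while mRNAs such as Atf4, which carry short upstream reading frames, are translated more. Lack of amino acids also lowers mTORC1 activity, which is known to reduce translation of mRNAs for ribosomal proteins. The series title places the study on O-GlcNAcylation of the subunit eIF3a in this response.

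The files name transcripts only by Ensembl identifiers, and 0 of the 15354 identifiers were found in the reference table, so no gene name or sequence is given and neither Atf4 nor markers of fibroblasts could be looked up. Transcripts are described by coding length, in nucleotides (nt), which was recovered together with whole read numbers from the deposited values (RPKM, reads per kilobase of coding region, relative to the total reads of the library). Fed replicates held 148884 and 199785 reads, and starved replicates 52148 and 129252. The files listed 4031, 5807, 1919 and 4864 transcripts in the same order, with a median of 9 to 13 reads each, and the lowest listed value was 5 reads in all 4. Starved replicate 1 was thus the shallowest library and decided most of the listing: 1691 transcripts were listed in the other 3 files but not in it. Reads on transcripts without a listed or recovered value made up 32.6% of its total, against 9.30% to 12.9% in the other 3.

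Of the 1741 transcripts, 2 rose and 4 fell with starvation past an adjusted p of 0.05 (limma on log2(RPKM + 1) after scaling between libraries, Benjamini-Hochberg adjustment over all 1741; 0.115% higher and 0.23% lower). The 2 that rose did so by 12.8-fold and 17.2-fold, and the 4 that fell did so by 7.87-fold to 10.7-fold. All 6 had coding lengths of 1587 nt or more, but such lengths were common: of all 1741 transcripts, 571 had 1201 to 2400 nt and 382 over 2400 nt. Their fed and starved libraries did not overlap, which a call at such a fold change nearly implies. Non-overlap also held for 21.5% of all transcripts in the higher and 21.8% in the lower direction. At an unadjusted p under 0.05 stood 102 transcripts on the higher side (5.86%) and 125 on the lower side (7.18%). The number of calls depended on single libraries: leaving out fed replicate 1 gave 4 higher and 2 lower, without fed replicate 2 there were 2 and 1, without starved replicate 1 there were 8 and 27, and without starved replicate 2 there were 42 and 44. Where 1 library was left in a group, it was assumed to vary like the other group. Scaling moved the median log2 fold change of all 1741 transcripts from 0.236 in the deposited RPKM to 0.02, and fold changes are given relative to that scaled level unless stated otherwise. The alternative of limma-voom on recovered reads used library totals without this scaling, with a median of 0.237. Without scaling, 2 transcripts were called higher and 5 lower, and the split at an unadjusted p under 0.05 was 150 higher against 73 lower.

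**Figure D1:**
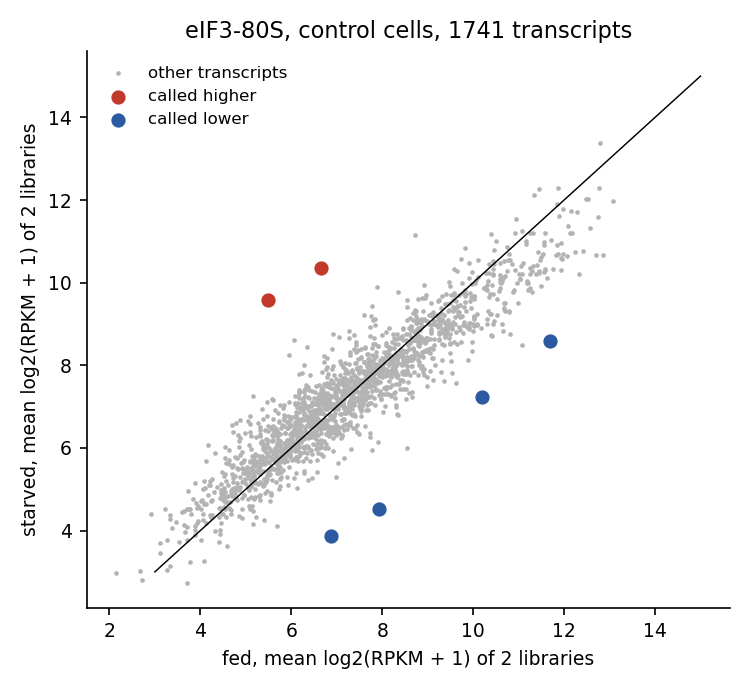
Mean level of each of 1741 transcripts in the 2 fed (x axis) and 2 starved (y axis) eIF3-80S libraries of control cells, as log2(scaled RPKM + 1), with the line of equal levels. The 2 transcripts called higher (red) lie above the cloud and the 4 called lower (blue) below it.

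The largest rise was that of ENSMUST00000025120, which has a coding length of 2496 nt. It measured 32.3 and 52.1 RPKM in the fed libraries and 1337 and 524 RPKM in the starved libraries. Both starved values lay far above both fed ones, and they rested on 174 and 169 reads against 12 and 26. Its log2 fold change was 4.10 (SE 0.519, limma adjusted p = 0.0236). The same transcript in Ribo-seq, which samples footprints of all ribosomes, measured 11.7 and 12.03 RPKM in fed and 42.8 and 44.2 RPKM in starved control cells. Those groups did not overlap either, with a log2 fold change of 1.51 (limma unadjusted p = 0.0188, adjusted p = 0.242).

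The other rise was that of ENSMUST00000030207, with a coding length of 1587 nt. Fed libraries gave 93.1 and 94.6 RPKM, from 22 and 30 reads, and starved libraries 2441 and 819 RPKM, from 202 and 168 reads. The fed values were close to each other, whereas the starved values differed by more than the fed ones and both lay far above them. The log2 fold change was 3.68 (SE 0.554, limma adjusted p = 0.0236). In Ribo-seq it measured 58.3 and 56.1 RPKM in fed and 144 and 82.5 RPKM in starved cells, a log2 fold change of 0.62. For both transcripts the rise was steeper in replicate 1 than in replicate 2: the scaled starved to fed ratio was 33.8 against 9.09 for the first and 21.4 against 7.84 for the second.

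The steepest fall was that of ENSMUST00000203577, of 3759 nt. It measured 365 and 142 RPKM in fed libraries, from 204 and 107 reads, and 30.6 and 18.5 RPKM in starved ones, from 6 and 9 reads. The fed libraries differed from each other, and both starved values stood near the lowest that a file lists. Its log2 fold change was -3.42 (SE 0.571, limma adjusted p = 0.0409), and it was the least stable call, past the threshold under 8 of 13 alternative settings.

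ENSMUST00000115460, of 4803 nt, had the highest RPKM of the 6 in the fed libraries. Its fed levels were 2657 and 3618 RPKM, from 1900 and 3472 reads, and its starved levels 271 and 641 RPKM, from 68 and 398 reads. It fell by 3.11 (SE 0.466, limma adjusted p = 0.0236). In Ribo-seq of the same conditions it had 39.9 and 39.8 RPKM in fed and 156 and 29.5 RPKM in starved cells, so its starved libraries lay on both sides of the fed ones there.

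The other 2 transcripts that fell had 7857 and 2412 nt. The one of 7857 nt measured 127 and 94.3 RPKM in fed and 14.6 and 14.8 RPKM in starved libraries, with 148 reads in each fed library against 6 and 15. The one of 2412 nt measured 835 and 1446 RPKM in fed and 111 and 234 RPKM in starved libraries, with 300 and 697 reads against 14 and 73. Replicates of the first were close in both groups, and those of the second differed less than the groups did. Their log2 fold changes were -3.02 and -2.98 (SE 0.449 and 0.454, limma adjusted p = 0.0236 for both).

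**Figure D2:**
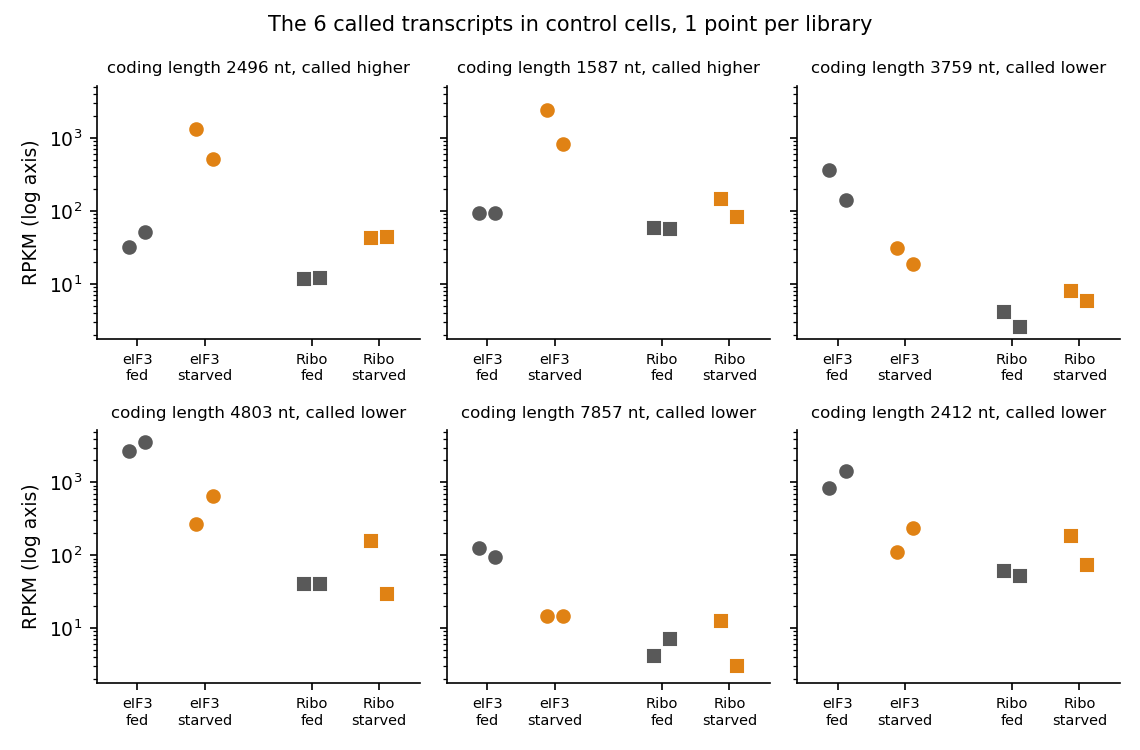
RPKM (log axis) of the 6 called transcripts in control cells, with 1 point per library, circles for eIF3-80S, squares for Ribo-seq, grey for fed and orange for starved. In eIF3-80S the fed and starved libraries are apart in every panel, and in Ribo-seq they overlap for the transcripts of 4803 and 7857 nt.

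Beyond the calls, transcripts with non-overlapping libraries and a fold change of at least 2 were ranked by unadjusted p. There were 102 such transcripts on the higher side (5.86%) and 111 on the lower side (6.38%). The first 13 not called on the higher side had coding lengths of 498 to 3159 nt, with a median of 1272 nt, and fold changes of 2.93 to 4.32 (limma adjusted p = 0.152 to 0.158). All 13 had a log2 fold change above 0 in Ribo-seq as well, as did 535 of all 892 transcripts above 0 in eIF3-80S. The transcript of 666 nt, for example, had 131 and 368 RPKM in fed and 979 and 1092 RPKM in starved eIF3-80S libraries, against 201, 709.5, 2011 and 4747 RPKM in Ribo-seq in the same order. The transcript of 1347 nt was different: its eIF3-80S levels were 39.9 and 26.0 RPKM in fed and 228 and 121 RPKM in starved cells, and in Ribo-seq 74.2 and 202 RPKM in fed lay among 192 and 121 RPKM in starved cells. That of 2028 nt had 28.4 and 30.1 RPKM in fed and 250.6 and 29.5 RPKM in starved Ribo-seq, so its value there rested on 1 starved library. Most of these 13 rested on few reads in eIF3-80S, down to 5 in a library.

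On the lower side, the first 11 not called had a median of 483 nt, and 7 of them had at most 600 nt. Of all 1741 transcripts 312 had at most 600 nt, and of the 125 lower ones at an unadjusted limma p under 0.05 there were 46. None of the 4 called ones was under 2412 nt, but 4 and 11 transcripts are too few to set apart by length. Their fold changes were 3.08 to 5.96 (limma adjusted p = 0.105 to 0.158). The transcript of 519 nt had 7804 and 6095 RPKM in fed and 1626 and 1923 RPKM in starved eIF3-80S libraries. Its Ribo-seq levels were 11500 and 8376 RPKM in fed and 1005 and 1512 RPKM in starved cells, so the groups were apart in both assays. The transcript of 639 nt had 1482 and 1880 RPKM in fed and 450.1 and 484 RPKM in starved eIF3-80S libraries, with a log2 fold change of -2.05 there and -3.28 in Ribo-seq. The transcripts of 252 and 348 nt likewise had fed eIF3-80S levels of 4171 to 7218 RPKM and starved levels of 1218 to 1779 RPKM.

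The 3 of these 11 whose Ribo-seq log2 fold change was above 0 were all longer, with 6477, 1941 and 1605 nt. The transcript of 6477 nt measured 333 and 360 RPKM in fed and 38.5 and 122 RPKM in starved eIF3-80S libraries, but 21.2, 21.6, 30.4 and 36.9 RPKM in Ribo-seq. The transcript of 1941 nt measured 1723 and 2349 RPKM in fed against 188 and 817 RPKM in starved eIF3-80S libraries. The leading transcripts of the lower side, called ones included, thus held coding regions of 1605 nt or more with a higher RPKM in fed eIF3-80S than in fed Ribo-seq libraries and ones of at most 639 nt with a high RPKM in both. They had been chosen by fed levels above starved ones in eIF3-80S, which favours high fed levels there. The trait was not particular to the lower side: both transcripts called higher also had a higher fed RPKM in eIF3-80S than in Ribo-seq. RPKM of each assay is relative to its own libraries.

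Each numbered starved library was also set against the fed library of the same number, a pairing that the labels do not give. The log2 ratios of replicate 1 and replicate 2 correlated at 0.452 across the 1741 transcripts (Pearson, a description, since transcripts share libraries), and 1078 transcripts (61.9%) had the same sign in both. The SD of the log2 ratio was 0.695 between the fed replicates and 0.792 between the starved replicates. Starved to fed ratios had SDs of 0.897 for replicate 1 and 0.718 for replicate 2. Across numbers the SD was 0.884 for fed 1 with starved 2 and 0.955 for fed 2 with starved 1. Taken over all transcripts, the spread between conditions was thus of about the size of the spread between replicates, or somewhat larger. Fed and starved libraries did not overlap for 375 transcripts in the higher direction (21.5%) and 380 in the lower direction (21.8%). For a single transcript, full separation of 2 against 2 libraries has a two-sided exact permutation p of only 0.333.

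**Figure D3:**
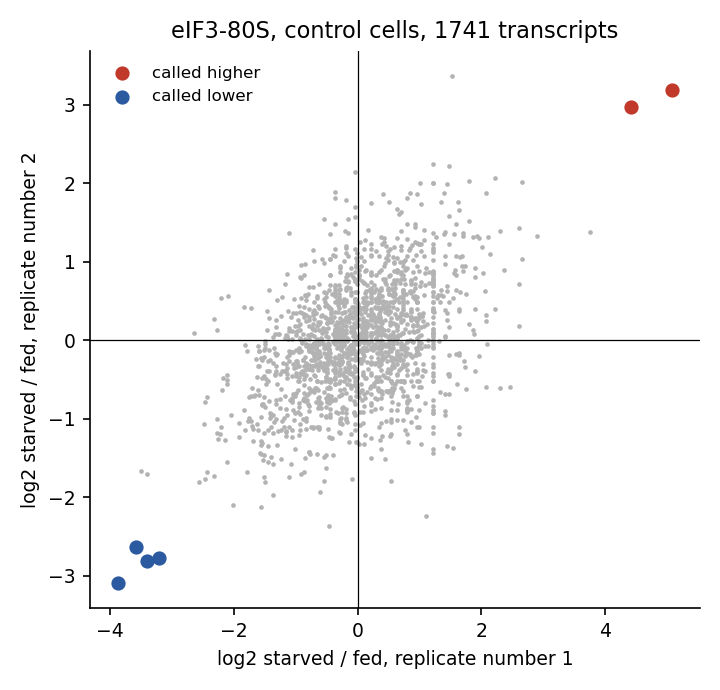
Log2 ratio of starved to fed scaled levels for replicate number 1 (x axis) and replicate number 2 (y axis), 1 point for each of 1741 transcripts in eIF3-80S of control cells. The called transcripts (2 red, 4 blue) lie outside the cloud around 0. They were chosen from these same libraries, and since their fed and starved libraries do not overlap, their ratios necessarily have the same sign in both replicates.

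Fold changes differed with coding length and level. The median log2 fold change was -0.19 for 263 transcripts of 301 to 600 nt and 0.19 for 382 transcripts over 2400 nt, with values of -0.11, -0.05 and 0.08 for 49 transcripts of up to 300 nt, 476 of 601 to 1200 nt and 571 of 1201 to 2400 nt. Libraries did not overlap in the lower direction for 30.8% of the transcripts of 301 to 600 nt and 13.9% of those over 2400 nt, against 21.8% of all. In the deposited RPKM without scaling, all of these class medians were above 0, from 0.03 for 301 to 600 nt to 0.40 for over 2400 nt, so the order of these classes held and the sign of the shorter classes did not. Ribo-seq gave the same contrast with a wider range: its class medians were -1.22, -0.86, -0.18, 0.42 and 0.32 from the shortest to the longest class. These are descriptions over transcripts and not tests. With libraries paired by number, which the labels do not do, the median log2 ratio for 301 to 600 nt was -0.32 in replicate 1 and -0.10 in replicate 2.

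**Figure D4:**
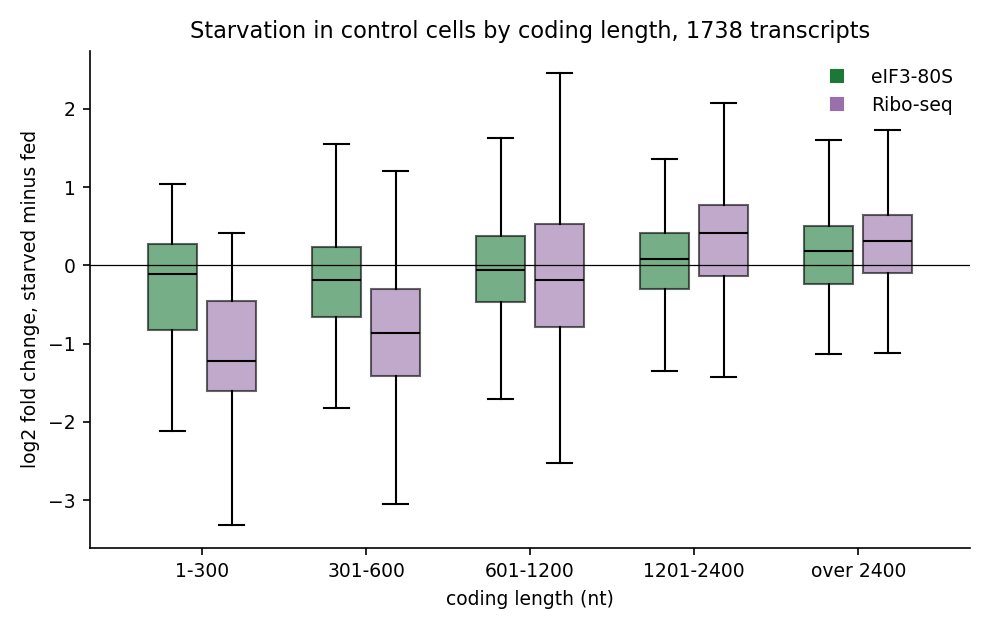
Log2 fold change, starved minus fed, in control cells by class of coding length for eIF3-80S (green) and Ribo-seq (purple), over 1738 transcripts listed in every control file of both assays. Boxes span the quartiles with the median as a line, and whiskers reach the farthest values within 1.5 times the box height. After scaling, the medians go from below 0 in the shorter classes to above 0 in the longer ones in both assays, over a wider range in Ribo-seq, whereas all eIF3-80S medians are above 0 in unscaled RPKM.

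Fold changes also followed level. Transcripts were divided into 4 level classes of equal size by their mean RPKM in fed Ribo-seq libraries, which do not enter the eIF3-80S fold changes. The median eIF3-80S log2 fold change was 0.23, 0.12, -0.02 and -0.32 from the lowest to the highest class. Transcripts whose starved libraries were both below their fed ones made up 10.1% of the lowest and 39.3% of the highest class. Both same-numbered pairs had that direction, from 0.44 to -0.47 in replicate 1 and from 0.07 to -0.22 in replicate 2. In the deposited RPKM without scaling the class medians went from 0.44 over 0.34 and 0.20 to -0.10, so that only the highest class was below 0.

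Coding length followed level, since 268 of the 312 transcripts of at most 600 nt were in the highest level class. Within that class, the median was -0.25 for the 268 of at most 600 nt and -0.38 for the 167 longer ones, so longer transcripts of high level were not above the short ones. In the class next to it, 41 transcripts of at most 600 nt had a median of 0.30 and 394 longer ones -0.04. A transcript had to reach 5 reads in the shallow starved replicate 1 to be counted. Over the 3432 transcripts listed in both fed libraries and starved replicate 2, without regard to starved replicate 1, the level class medians were 0.09, 0.07, -0.04 and -0.22 and the length class medians -0.12, -0.13, -0.08, 0.06 and 0.12. The order by level remained, over a narrower range. That set still left out transcripts unlisted in a fed library or in starved replicate 2. Among those left out were 391 listed in both fed and neither starved library, against 11 with the opposite pattern. The starved libraries were also the shallower ones, with 52148 and 129252 reads against 148884 and 199785 in the fed ones. If an unlisted transcript had at most 4 reads, the 391 had a median bound of only 1.03-fold lower. Whether leaving out unlisted transcripts shapes the order was not tested.

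The share of recovered reads on coding regions of at most 600 nt put these shifts on the scale of whole libraries. It was 19.4% and 18.6% in the fed and 16.4% and 17.9% in the starved eIF3-80S libraries. The groups did not overlap, with means of 19.0% ± 0.61 and 17.1% ± 1.07 (SD, n = 2 each) and a difference of -1.89 percentage points. A two-sided exact permutation test gave p = 0.333, the smallest that 2 against 2 libraries allow. With a limit of 450 nt the difference was -0.64 percentage points and the groups overlapped. They also overlapped without the transcript of the largest read share, described last, at 22.9% and 18.7% in fed and 19.8% and 17.97% in starved libraries (exact p = 0.667). In Ribo-seq the share was 43.3% and 34.5% in fed and 21.1% and 27.1% in starved libraries, a difference of -14.8 percentage points.

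The difference between the assays was tested as an interaction over 1738 transcripts listed in all 8 control files. Limma called 0 transcripts (0%), limma-voom on recovered reads also called 0, and 51 (2.93%) had a higher and 69 (3.97%) a lower eIF3-80S fold change at an unadjusted p under 0.05. The 6 called transcripts had the larger changes in eIF3-80S. They had been chosen by those changes in the same libraries, so a smaller change in Ribo-seq is expected from the choice alone. The 4 that fell had Ribo-seq log2 fold changes of 0.63, 0.47, -0.06 and 0.76 in the order given above, of which 1 was below 0. The lowest unadjusted p of all was 0.00039, for the transcript of 2412 nt, whose eIF3-80S minus Ribo-seq difference was -3.73 (SE 0.724, limma adjusted p = 0.671). That of ENSMUST00000203577 was -4.05 (SE 0.903) and that of ENSMUST00000030207 was 3.06 (SE 0.804), with the same limma adjusted p of 0.671. Without fed Ribo-seq replicate 1, which left 1 library in that group, the differences of the same transcripts were -3.87, -4.35 and 3.01 in that order.

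Across the 1738 transcripts, eIF3-80S and Ribo-seq log2 fold changes correlated at 0.313 (Pearson) and 0.243 (Spearman), and 57.5% had the same sign. Among the 227 at an unadjusted p under 0.05 in eIF3-80S, 74 of the 102 higher and 84 of the 125 lower ones had the same sign in Ribo-seq (69.6%). The assays share no library, but their inserts were cut from different gel ranges, 20 to 70 nt for eIF3-80S and 25 to 35 nt for Ribo-seq.

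Starvation was also measured in eIF3-80S libraries of cells with a 4-OHT-induced Ogt knockout (0.5 µM for 24 h, then 24 h in fresh medium) and of cells given 0.1 µM Thiamet-G for 16 h, with 1 fed and 1 starved library each. Ogt encodes the enzyme that attaches O-GlcNAc to proteins, and Thiamet-G inhibits the enzyme that removes it. In both pairs most transcripts at an unadjusted p under 0.05 in control cells had a ratio on the same side. Of these, 84 of 95 higher and 114 of 125 lower ones listed in the knockout pair had the same sign there, 90.0% against 66.8% of all 1718. In the Thiamet-G pair it was 78 of 97 and 119 of 125, 88.7% against 67.7% of all 1696. These pairs share no library with the control comparison.

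The 6 called transcripts divided in the other pairs. The transcript of 4803 nt went from 6163 to 925 RPKM in knockout and from 5498 to 894 RPKM in Thiamet-G cells, and that of 2412 nt from 879.5 to 188 and from 1805 to 197 RPKM. Both were thus lower in the starved library of all 3 backgrounds. The other 4 had no comparable difference. ENSMUST00000025120 had 64.8 RPKM in fed and 50.6 in starved knockout cells, and 27.9 and 46.8 with Thiamet-G, levels near those of fed control cells. ENSMUST00000030207 had 106 and 68.6 RPKM in knockout and 103.5 and 82.8 RPKM in Thiamet-G cells, again near the fed control level. ENSMUST00000203577 and the transcript of 7857 nt stood at 10.2 to 26.7 RPKM in all 4 of these libraries, near their starved control levels and below both fed control levels. Both had been chosen by fed control values above starved ones, so lower values in other libraries are in part expected from the choice. The reason for the difference was not tested.

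These differences were tested in a fit of all 8 eIF3-80S libraries over 1679 transcripts, in which the spread came from the control libraries alone (2 residual degrees of freedom). The 6 called transcripts had been chosen by the control values that enter these differences. Limma called 0 transcripts for knockout against control (0%), where 33 had an unadjusted p under 0.05 (1.97%), and 0 for Thiamet-G against control (0%), where 43 did (2.56%). For ENSMUST00000025120 the knockout minus control difference of log2 fold changes was -4.67 (SE 0.908, limma unadjusted p = 0.000532, adjusted p = 0.839). Limma-voom on recovered reads called 2 transcripts lower for the knockout, and these were ENSMUST00000025120 and ENSMUST00000030207 (adjusted p = 0.0426 for both), whose adjusted p ranged from 6.33e-08 to 1.0 and from 5.15e-09 to 1.0 over 11 alternatives. Limma-voom called 1 transcript higher for Thiamet-G. Leaving out single control libraries gave up to 4 higher and 9 lower calls for the knockout, where those without starved replicate 1 were 4 and 6 and those without starved replicate 2 were 3 and 9. For Thiamet-G they were 11 and 3, and 13 and 5.

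**Figure D5:**
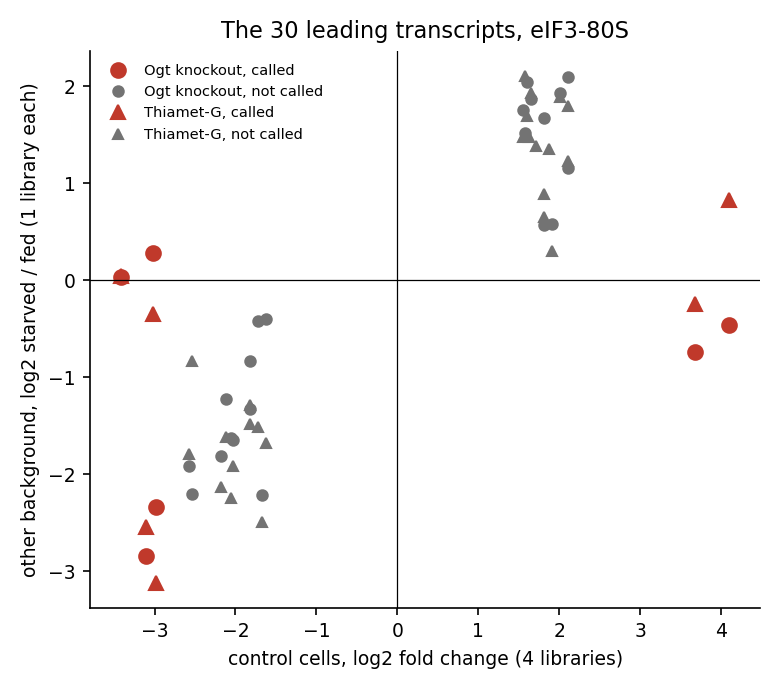
Log2 fold change of the 30 leading transcripts in eIF3-80S of control cells (x axis, 4 libraries) and their log2 ratio of starved to fed in Ogt knockout (circles) and Thiamet-G (triangles) cells (y axis, 1 library per condition, divided by the median ratio of the pair). The 24 transcripts not called (grey) lie on the same side of 0 in all backgrounds where listed, and of the 6 called ones (red) the 2 that rose and 2 of the 4 that fell have ratios between -0.74 and 0.83 in the others.

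The 24 leading transcripts that were not called had ratios on the control side throughout: all 10 higher ones listed in the knockout pair and all 13 in the Thiamet-G pair were above 0, and all 11 lower ones were below 0 in both. The transcript of 519 nt went from 7315 to 2241 RPKM in knockout and from 6666 to 1435 RPKM in Thiamet-G cells. That of 666 nt went from 204 to 837 RPKM and from 309 to 1085 RPKM. The transcript of 6477 nt, which did not follow Ribo-seq, went from 1032 to 242 RPKM and from 684 to 362 RPKM.

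Transcripts that were listed in only 1 of the conditions have no fold change. The reads of the listed libraries give a bound if an unlisted transcript had at most 4 reads. That limit was inferred from the lowest listed value, since the filter is not given. Gaps also arose within a condition: a transcript of 1485 nt had 2074 reads in fed replicate 1 and was unlisted in fed replicate 2. Of 391 transcripts listed in both fed and neither starved library, 23 were at least 2-fold lower by this bound, taken between the means of each group, and 7 at least 4-fold lower. Setting the lower listed library against the deeper unlisted one instead gave 93 and 7. The bounds hold only under that assumed limit, cover counting only and have no test. The largest was that of a transcript of 16905 nt, which had 190 and 82.9 RPKM from 478 and 280 reads in the fed libraries and was at least 50.9-fold lower in the starved ones (at least 50.03-fold by the second bound). A transcript of 5628 nt followed, with 499 and 85 reads and unequal fed levels of 595.5 and 75.6 RPKM, at least 43.3-fold lower by the means but at least 15.2-fold by the second bound. Both were chosen after their values were seen. In the opposite direction there were 11 transcripts, with a median coding length of 2541 nt and none of at most 600 nt. Their bounds reached 11.2-fold for a transcript of 5373 nt with 25 and 16 reads in the starved libraries, at 89.2 RPKM in the shallow replicate 1 and 23.04 RPKM in replicate 2, and the second bound for it was 5.60-fold.

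A transcript of 4920 nt, also chosen after its values were seen, took an unequal share of reads in replicates of the same condition. It held 13.03% and 0.57% of all reads in the fed libraries and 11.7% and 0.43% in the starved ones, and at most 0.00252% in any control Ribo-seq library. The difference followed the replicate number and not starvation, with a log2 fold change of -0.49 (limma adjusted p = 0.94). It made up most of the difference between replicates in the share of recovered reads on coding regions over 3000 nt. That share was 28.4% and 18.5% in fed and 30.2% and 17.97% in starved libraries with it, and 15.8%, 17.95%, 15.5% and 17.6% without it. In the other backgrounds it held 3.88% and 1.34% of reads in fed and starved knockout cells and 0.45% and 3.20% with Thiamet-G.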

How the data were processed

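Each file held transcript identifiers with RPKM values, which the authors deposited as 1 file per library. Tools listed in the submitters' processing notes are cutadapt and STAR, with GRCm38 as the build. How reads were counted and which annotation or filter was applied is not given in the sources used here. Titles gave each library's group and replicate number. The description of fed Ribo-seq control replicate 2 gives replicate 1, and the title was followed. The libraries compared, the lists and the alternatives were chosen with earlier results of these data known.

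Whole reads, library totals and coding lengths were recovered from the steps between RPKM values (relative tolerance 1e-09) for 12249 of 15354 transcripts, and 99.86% of the lengths were multiples of 3. Replicates of a group differed by far more than sampling noise (chi-square per degree of freedom 19.1 and 11.3). RPKM were divided by each library's median ratio to the geometric mean of the libraries (factors 0.841, 1.04, 1.03 and 1.15) and tested in R 4.3.3 with limma 3.58.1 (lmFit and trended eBayes, two-sided, adjusted p under 0.05) on log2(RPKM + 1), a scale that understates changes of low transcripts. Limma-voom on recovered reads was an alternative, which took the library totals as sizes and left out the median-ratio scaling, so it differed in scaling as well as in model. The rule for named transcripts took, per direction, the called ones with non-overlapping libraries and filled up to 15 with the lowest unadjusted p among non-overlapping transcripts with a fold change of at least 2. Gene lists and markers were left out, since no identifier matched a symbol. No more than 2 identifiers are named per direction. The knockout and Thiamet-G comparisons, the bounds and the classes of length and level were added after the data were seen. Intervals between libraries rest on few samples, and RPKM and shares are relative to each library. The recovery and the limma fit of the control eIF3-80S comparison were tested on simulated data.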

Additional observations from a re-analysis of the deposited data

Results flagged for a closer look

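For 4 of the 6 transcripts called in control cells, the log2 fold change had the opposite sign in at least 1 of the other backgrounds. Each other background had 1 fed and 1 starved library, and values near 0 there show no direction. In the fit of 8 eIF3-80S libraries, ENSMUST00000025120 had a log2 fold change of -0.55 in knockout cells against 4.12 in control cells. ENSMUST00000030207 had -0.82 in knockout and -0.051 in Thiamet-G cells against 3.70 in control cells. The transcript of 7857 nt had 0.18 in knockout cells against -3.00, and ENSMUST00000203577 had 0.22 in Thiamet-G cells against -3.40. The last value is a matter of scaling, since the deposited RPKM were 20.0 when fed and 19.4 when starved. The 5 differences had limma adjusted p-values of 0.839 to 1.0, so none passed the threshold.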

How the results depend on the processing

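Calls in control cells fell to 0 higher and 0 lower under quantile normalization (limma, 93 and 79 at an unadjusted p under 0.05) and with unlisted transcripts taken as 0 (33 and 439, 6375 tested). Leaving out 1 library gave 2 to 42 higher and 1 to 44 lower. The replicate number as a block gave 8 higher and 14 lower calls. Same-numbered libraries deviated together (r = 0.339 across transcripts), but with 2 pairs and no label of a shared batch the numbers were not taken to pair the libraries. Of the 6 called transcripts, each kept its direction under 13 alternatives and was called in 8 to 11 of them, with limma or limma-voom adjusted p-values up to 0.511. The interaction with Ribo-seq had 0 to 2 lower calls without 1 library and 0 under the other alternatives. For knockout against control, limma-voom called 2 lower, and leaving out 1 library gave 0 to 4 higher and 0 to 9 lower. For Thiamet-G against control, limma-voom and unscaled RPKM each called 1 higher, and leaving out 1 library gave 0 to 13 higher and 0 to 5 lower. Uncalled differences changed sign for the transcript of 2412 nt with Thiamet-G (-0.43 unscaled, -0.43 in limma-voom, and -0.43 to 0.49 without 1 library, with -0.22 without fed replicate 2) and for ENSMUST00000115460 in knockout cells (-0.33 to 0.69 without 1 library). The short-region share differed by -0.64 percentage points at 450 nt. The cause of these changes was not tested. Depth limits all of this: the median listed transcript had 9 to 13 reads. The alternatives for gene lists were not run, as no symbol matched.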
